A study of Homo sapiens with 18 samples.

Results

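The genes of cholesterol and fatty acid synthesis were followed across 18 expression arrays of MCF10A, an established line of human mammary epithelial cells that does not form tumours. The set was listed by gene name and function, with earlier results of these data known, and holds 34 genes: 18 enzymes of the mevalonate and sterol steps, 6 regulators of the SREBP pathway, 7 fatty acid enzymes, and 3 genes of sterol export and receptor turnover. STARD4, a carrier of cholesterol, is counted among the 6 regulators throughout. Of the 34 genes, 32 were measured among 18404 genes. FDFT1 is not analysed here, and HSD17B7 is read only by a probe set shared with a pseudogene and was not used, which leaves 16 of the 18 sterol enzymes.

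The arrays form 6 groups of 3. LATS1 and LATS2, kinases of the Hippo pathway, restrain the co-activators YAP and TAZ. Lentivirus at a multiplicity of infection of 5 carried shNT, a control hairpin with no target, or shLATS1B, which targets LATS1, or shLATS1+2, described as directed at both kinases. After 4 days in puromycin (1.5 µg/ml) and at least 7 days of recovery, all cells received plasmid cDNA by lipid transfection and were kept for 5 days in M5, a medium containing estrogen, so every group had been infected, selected, transfected and exposed to estrogen. Cells with shNT received control cDNA (the control arrays), YAP/TAZ cDNA, ESR1 cDNA (encoding estrogen receptor alpha), or YAP/TAZ and ESR1 cDNA together (the combined cDNA arrays). Cells with shLATS1B or shLATS1+2 received control cDNA. Delivery of cDNA was transient, so only part of the cells need carry it, and the labels do not say whether the 3 replicates are separate cultures or whether a hairpin line was derived more than once. The p-values therefore measure only the spread between these samples, which may be technical.

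Cells make cholesterol from acetyl-CoA through mevalonate, farnesyl diphosphate, squalene and lanosterol. When sterol falls in the endoplasmic reticulum, SCAP carries the SREBP transcription factors to the Golgi, where proteases release the active part, which switches on the genes of sterol and fatty acid synthesis. Sterol-bound SCAP is held back by the INSIG proteins, and INSIG1 is itself a target of SREBP. Excess oxysterol acts through the nuclear receptors LXR, which raise the export pumps ABCA1 and ABCG1, the ubiquitin ligase MYLIP and, in many cells, SREBF1.

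Values are log2 intensities as deposited. Array medians lay between 5.494 and 5.619, and the correlation of arrays within a group was 0.993 to 0.998. Over all genes, the first principal component (47.3% of the variance) placed the control, YAP/TAZ and ESR1 arrays between -23.0 and -10.3 and the combined cDNA, shLATS1B and shLATS1+2 arrays between 9.83 and 22.7. The labels name no batch, so a batch that fell along this division and the groups cannot be told apart. LATS1 averaged 8.86 ± 0.086 (SD, n = 3) in control arrays, 8.79 ± 0.062 with YAP/TAZ and 8.75 ± 0.13 with ESR1. With the combined cDNA it averaged 9.33 ± 0.09, above every control array. It averaged 7.66 ± 0.13 with shLATS1B and 7.76 ± 0.09 with shLATS1+2, whereas LATS2 was not lower in the latter (7.82 ± 0.09 against 7.73 ± 0.10). That group is therefore called by its label below, as are the arrays of YAP/TAZ cDNA. ESR1 was at 6.47 ± 0.10 in the ESR1 arrays and 6.03 ± 0.079 in the combined cDNA arrays against 5.52 ± 0.14 in the control arrays, and it also stood at 6.37 ± 0.11 and 6.40 ± 0.055 in the 2 hairpin groups. YAP1 (10.79 ± 0.029) was not above the control arrays (10.84 ± 0.031) in the arrays labelled YAP/TAZ, nor was WWTR1, the gene for TAZ (9.44 ± 0.047 against 9.57 ± 0.16). Whether these probe sets read the transfected cDNA is not known, so they do not show whether it was expressed. All 9 measured mammary epithelial markers lay above the dim limit, a mean log2 intensity of 5.208 that marks the lowest 30% of genes. Of the markers of other cells, 1 of 8 adipocyte genes (PPARG), 5 of 7 leukocyte genes and 4 of 8 fibroblast or endothelial genes lay above it. Their array medians stayed within 4.86 to 5.07, 5.57 to 5.77 and 5.09 to 5.32. Group medians of the adipocyte list ran from 4.89 in the control arrays to 4.98 with YAP/TAZ, and those of the mammary epithelial list from 10.85 in the arrays labelled shLATS1+2 to 11.23 in the combined cDNA arrays. Single markers moved more than these medians. Of the 9 mammary epithelial markers, 3 were higher and 5 lower with shLATS1B than in the control arrays, and 4 were higher and 5 lower with the combined cDNA. KRT14, a basal keratin, changed by -2.57 with shLATS1B and -2.27 with the combined cDNA, and KRT8, a luminal keratin, by 1.10 and 0.65. With YAP/TAZ or ESR1 alone, KRT14 changed by -0.73 and -0.78, and KRT8 was not called. EPCAM changed by 0.67 with shLATS1B and 0.63 with the combined cDNA. Of the 7 leukocyte markers, CD14 (1.82 and 2.01) and CD68 (0.90 and 0.96) were higher in both comparisons, and 3 in all were higher with the combined cDNA. The mean of PTPRC, which defines leukocytes, lay below the dim limit. Of the fibroblast and endothelial markers, PECAM1 was higher (0.55 and 0.28). No adipocyte marker was called in either comparison. In the arrays labelled shLATS1+2, PPARG was the only adipocyte marker called (0.44, higher than control), and PECAM1 was higher by 0.85. CD14 (1.70) and CD68 (0.71) were higher there too. The part of these shifts in the results below was not tested. In bulk RNA, fewer cells of a type and less RNA per cell cannot be told apart.

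Across the 6 groups these genes varied more widely than most. The median distance between the highest and the lowest group mean was 0.66 log2 units over the 32 genes and 0.22 over all genes. All genes include the dim 30%, whereas 29 of the 32 lay above the dim limit, and genes of like intensity were not compared. INSIG1 spanned 2.18 units (4.53-fold), TM7SF2 1.89, HMGCS1 1.51, SCD 1.44, FADS2 1.31, MVK 1.26, and ACAT2 and FASN 1.03 each. By role, the median span was 0.62 for the sterol enzymes, 0.82 for the SREBP regulators, 0.73 for the fatty acid enzymes and 0.30 for the export genes. At the other end stood ABCA1 (0.06), INSIG2 (0.21) and SCAP (0.28).

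The promoters of the 4 widest-ranging genes are shown, as the 250 bases before the transcription start in RefSeq (GRCh38.p14), 5′ to 3′ along the gene. They lie at chr7:155297628-155297877 (INSIG1, plus strand), chr11:65111622-65111871 (TM7SF2, plus), chr5:43313413-43313662 (HMGCS1, minus) and chr10:100346983-100347232 (SCD, plus). Capitals mark CCAAT, the box bound by NF-Y, a usual partner of SREBP, on either strand (ATTGG on the other). SREBF2 is added at chr22:41832962-41833021 (plus strand, 60 bases) for its match to TCACNCCAC, a consensus of the sterol regulatory element, which begins at position -133 from the start and is also in capitals.
INSIG1: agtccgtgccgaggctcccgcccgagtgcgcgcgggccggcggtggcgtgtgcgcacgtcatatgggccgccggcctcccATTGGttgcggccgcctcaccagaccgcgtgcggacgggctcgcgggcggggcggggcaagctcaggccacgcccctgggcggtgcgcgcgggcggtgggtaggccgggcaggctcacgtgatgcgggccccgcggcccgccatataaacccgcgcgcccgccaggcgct
TM7SF2: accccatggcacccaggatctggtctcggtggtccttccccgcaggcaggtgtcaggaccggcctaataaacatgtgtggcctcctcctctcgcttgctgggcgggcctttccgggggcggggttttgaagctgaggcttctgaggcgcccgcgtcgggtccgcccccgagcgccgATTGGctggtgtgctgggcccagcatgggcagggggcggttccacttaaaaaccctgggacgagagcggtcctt
HMGCS1: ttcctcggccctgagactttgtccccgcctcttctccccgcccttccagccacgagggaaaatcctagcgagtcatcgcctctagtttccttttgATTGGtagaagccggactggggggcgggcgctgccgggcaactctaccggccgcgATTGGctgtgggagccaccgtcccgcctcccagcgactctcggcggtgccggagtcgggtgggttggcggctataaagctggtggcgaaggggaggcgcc
SCD: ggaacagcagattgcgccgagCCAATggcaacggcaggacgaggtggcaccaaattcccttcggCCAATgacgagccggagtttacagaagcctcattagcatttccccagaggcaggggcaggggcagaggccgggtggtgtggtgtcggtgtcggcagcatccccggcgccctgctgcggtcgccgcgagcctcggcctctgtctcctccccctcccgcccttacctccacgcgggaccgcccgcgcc
SREBF2: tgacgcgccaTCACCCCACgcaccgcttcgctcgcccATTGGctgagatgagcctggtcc

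Each of the 4 promoters holds a CCAAT box, and none of the 4 holds TCACNCCAC. Windows from 250 bases before to 50 after the start were available for 29 of the 34 genes, and 4 motifs were searched on both strands. CCAAT was present in 18 of the 29 (62.1%) against 34.7% of 22199 promoters of protein-coding genes, in 12 of 15 sterol enzymes, 3 of 6 regulators, 2 of 6 fatty acid enzymes and 1 of 2 export genes. GGGCGG, the Sp1 box, was present in 27 (93.1% against 56.3%). CACGTG, the E-box, was present in 5 (17.2% against 8.34%), and TCACNCCAC only in SREBF2 among the 29, against 1.13% of all. The motifs as written do not contain one another. These are matches of letters, not measured binding.

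Among the regulators, INSIG1, which retains SCAP when sterol is plentiful, had the widest range. Its log2 intensity was 8.34, 8.42 and 8.34 in the control arrays, 8.01, 7.85 and 7.95 in the arrays labelled YAP/TAZ, and 8.21, 8.14 and 8.14 in the ESR1 arrays. It was 9.74, 9.75 and 9.84 in the combined cDNA arrays, 10.11, 10.13 and 10.11 in the shLATS1B arrays, and 9.92, 9.88 and 9.96 in the arrays labelled shLATS1+2. All 9 arrays of the first 3 groups lay below all 9 of the others, and the 6 groups did not overlap one another. Against control, INSIG1 was higher by 1.75 ± 0.047 (log2 change ± SE; 3.35-fold, limma adjusted p = 1.2e-13) with shLATS1B, by 1.55 ± 0.047 with shLATS1+2 and by 1.41 ± 0.047 with the combined cDNA. It was lower with either cDNA alone, by -0.43 ± 0.047 (limma adjusted p = 1.3e-05) for YAP/TAZ and -0.20 ± 0.047 (limma adjusted p = 0.0057) for ESR1. Each limma p is two-sided and adjusted over all 18404 genes by Benjamini-Hochberg, and a change is called at an adjusted p under 0.05.

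INSIG2, which does the same work in the membrane but is not known as a strong SREBP target, gave no call in any of the 9 comparisons. Its group means ran from 6.64 ± 0.048 in the combined cDNA arrays to 6.84 ± 0.11 in the arrays labelled shLATS1+2, and its change with shLATS1B had a 95% interval of -0.08 to 0.19. SCAP, the escort itself, gave none either, with group means from 8.46 to 8.74 and an interval of -0.24 to 0.08 with shLATS1B.

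The transcripts of both SREBPs were higher in the same 3 groups as INSIG1. SREBF1, whose products favour fatty acid genes, was at 7.43, 7.15 and 7.31 in the control arrays, 7.55, 7.39 and 7.39 with YAP/TAZ, and 7.47, 7.44 and 7.39 with ESR1. It stood at 8.04, 8.39 and 8.42 with the combined cDNA, 8.27, 8.36 and 8.18 with shLATS1B, and 7.95, 8.11 and 8.00 in the arrays labelled shLATS1+2. SREBF2, whose product favours sterol genes, was at 8.77, 8.52 and 8.47 in the control arrays, 8.47, 8.56 and 8.65 with YAP/TAZ, and 8.74, 8.39 and 8.45 with ESR1. The arrays with either cDNA alone overlapped the control arrays for both genes. SREBF2 stood at 9.09, 9.28 and 9.28 with the combined cDNA, 9.25, 9.24 and 9.23 with shLATS1B, and 9.13, 9.16 and 8.94 in the arrays labelled shLATS1+2, all above every array of the first 3 groups. Against control, SREBF1 rose by 0.97 ± 0.093 with shLATS1B, 0.72 ± 0.093 with shLATS1+2 and 0.99 ± 0.093 with the combined cDNA. The same changes were 0.65 ± 0.094, 0.49 ± 0.094 and 0.63 ± 0.094 for SREBF2, with limma adjusted p between 3.6e-07 and 0.00089 over the 6 values.

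STARD4, a carrier of cholesterol between membranes, was less even. It was at 7.93, 8.36 and 8.35 in the control arrays, 8.20, 8.03 and 8.11 with YAP/TAZ, and 8.18, 8.63 and 8.59 with ESR1. It was at 9.24, 8.93 and 8.98 with the combined cDNA, 8.83, 8.65 and 8.66 with shLATS1B, and 8.69, 8.78 and 9.11 in the arrays labelled shLATS1+2. The 3 higher groups again cleared every array of the lower 3, but narrowly. Its rise with shLATS1B (0.50 ± 0.14, limma adjusted p = 0.013) was no longer called without control array 1 or shLATS1B array 1 (0.36 to 0.44, limma adjusted p 0.060 to 0.069).

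**Figure D1:**
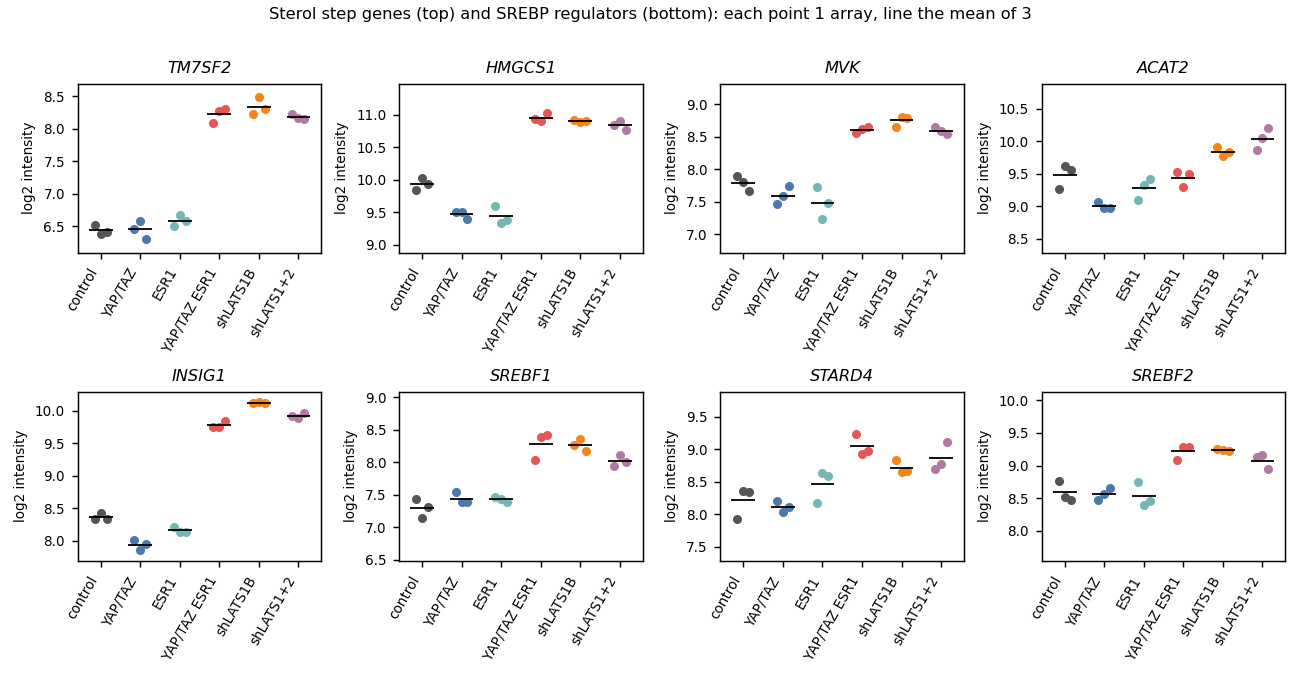
Log2 intensity (y axis) of 4 sterol enzymes (top) and 4 SREBP regulators (bottom) in the 6 groups (x axis); each point is 1 array, the line is the mean of 3, and every panel spans the same height. For TM7SF2, HMGCS1, MVK, INSIG1, SREBF1, SREBF2 and STARD4 the 3 groups on the right lie above the 3 on the left, whereas ACAT2 in the combined cDNA arrays (9.30 to 9.52) lies within the control range (9.26 to 9.61).

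Of the sterol enzymes, TM7SF2, a reductase of the sterol ring acting after lanosterol, had the widest range. It was at 6.52, 6.39 and 6.41 in the control arrays, 6.46, 6.59 and 6.31 with YAP/TAZ, and 6.50, 6.68 and 6.58 with ESR1. It was at 8.09, 8.28 and 8.31 with the combined cDNA, 8.22, 8.48 and 8.30 with shLATS1B, and 8.22, 8.17 and 8.15 in the arrays labelled shLATS1+2. The first 3 groups overlapped one another, as did the last 3, and the highest array of the first set (6.68) lay well below the lowest of the second (8.09). Against control it rose 3.71-fold with shLATS1B (1.89 ± 0.079, limma adjusted p = 2.9e-11), 3.35-fold with shLATS1+2 (1.74 ± 0.079) and 3.45-fold with the combined cDNA (1.79 ± 0.079). It was not called with YAP/TAZ (0.02 ± 0.079, limma adjusted p = 0.96) or ESR1 alone (0.15 ± 0.079, limma adjusted p = 0.23).

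HMGCS1, which forms the precursor of mevalonate, was at 9.84, 10.03 and 9.93 in the control arrays, 9.51, 9.51 and 9.40 with YAP/TAZ, and 9.60, 9.34 and 9.38 with ESR1. It was at 10.94, 10.91 and 11.02 with the combined cDNA, 10.92, 10.89 and 10.91 with shLATS1B, and 10.85, 10.90 and 10.76 in the arrays labelled shLATS1+2. Unlike TM7SF2, it fell below every control array with either cDNA alone: by -0.46 ± 0.067 with YAP/TAZ (limma adjusted p = 0.00031) and -0.49 ± 0.067 with ESR1 (limma adjusted p = 7e-05). It rose by 1.02 ± 0.067 with the combined cDNA, 0.98 ± 0.067 with shLATS1B and 0.90 ± 0.067 with shLATS1+2.

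MVK, mevalonate kinase, was at 7.90, 7.80 and 7.66 in the control arrays, 7.46, 7.58 and 7.74 with YAP/TAZ, and 7.73, 7.23 and 7.48 with ESR1. It was at 8.56, 8.62 and 8.64 with the combined cDNA, 8.65, 8.80 and 8.79 with shLATS1B, and 8.64, 8.58 and 8.54 in the arrays labelled shLATS1+2. The upper 3 groups cleared all others, with changes against control of 0.82, 0.96 and 0.80 (SE 0.10 each). Its fall with ESR1 alone (-0.31 ± 0.10, limma adjusted p = 0.043) overlapped the control arrays and was lost when any 1 of 11 of the 18 arrays was left out (-0.31 to -0.18, limma adjusted p 0.052 to 0.24).

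ACAT2, the thiolase that joins acetyl-CoA units at the start of the pathway, followed another order. It was at 9.26, 9.61 and 9.56 in the control arrays, 9.07, 8.97 and 8.97 with YAP/TAZ, and 9.09, 9.33 and 9.42 with ESR1. It was at 9.52, 9.30 and 9.50 with the combined cDNA, 9.91, 9.77 and 9.83 with shLATS1B, and 9.87, 10.05 and 10.20 in the arrays labelled shLATS1+2. The combined cDNA arrays thus lay within the control range (-0.03 ± 0.10, limma adjusted p = 0.87), while both hairpin groups lay above it (0.36 ± 0.10, limma adjusted p = 0.014; 0.56 ± 0.10, limma adjusted p = 0.00051). The call for shLATS1B ended without control array 1 or shLATS1B array 1 (0.26 to 0.33, limma adjusted p 0.062 to 0.079). Its fall with YAP/TAZ (-0.47 ± 0.10, limma adjusted p = 0.0084) became -0.40 (limma adjusted p = 0.053) without control array 2.

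The other 12 measured sterol enzymes had spans below that of ACAT2. DHCR7, the last reductase before cholesterol, rose most among them, from 10.35 ± 0.095 (SD, n = 3) in the control arrays to 11.08 ± 0.086 with the combined cDNA and 10.99 ± 0.035 with shLATS1B. SQLE, the epoxidase that commits squalene to sterols, went from 11.20 ± 0.054 to 11.52 ± 0.033 and 11.48 ± 0.013. IDI1, the isomerase of the isoprenoid unit, went from 10.46 ± 0.14 to 10.81 ± 0.13 and 10.85 ± 0.043. The remaining enzymes did not all follow. PMVK, phosphomevalonate kinase, had its highest mean in the control arrays (7.01 ± 0.28, from 7.25, 7.08 and 6.70). It averaged 6.84 ± 0.078 with YAP/TAZ, 6.71 ± 0.10 with ESR1 and 6.71 ± 0.14 with the combined cDNA. Its means were 6.80 ± 0.062 with shLATS1B and 6.64 ± 0.053 in the arrays labelled shLATS1+2, and every group overlapped the control arrays. NSDHL, which removes a methyl group from the sterol ring, stood between 10.34 and 10.40 in the control, combined cDNA, shLATS1B and shLATS1+2 arrays, with lower means of 10.24 with YAP/TAZ and 10.10 with ESR1. SC5D, a late desaturase, gave no call in any of the 9 comparisons, with group means from 10.04 to 10.43. CYP51A1, the lanosterol demethylase, is read by 2 probe sets that differ for the hairpins. The brighter one, used throughout, averaged 10.92 in the control arrays, 11.23 with shLATS1B and 11.20 with shLATS1+2, and the dimmer one 6.90, 6.92 and 6.80. With cDNA both went the same way: 10.79 with YAP/TAZ, 10.78 with ESR1 and 11.28 with the combined cDNA for the brighter, and 6.34, 6.53 and 7.06 for the dimmer.

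Of the fatty acid enzymes, SCD, the desaturase that makes oleate, had the widest range. It was at 11.23, 10.94 and 11.00 in the control arrays, 10.58, 10.75 and 10.75 with YAP/TAZ, and 10.76, 10.38 and 10.44 with ESR1. It was at 11.81, 11.89 and 11.96 with the combined cDNA, 11.98, 11.98 and 11.93 with shLATS1B, and 11.70, 11.68 and 11.58 in the arrays labelled shLATS1+2. Like HMGCS1 it lay below every control array with either cDNA alone and above every control array in the other 3 groups. Its changes against control were -0.37 ± 0.09 with YAP/TAZ, -0.53 ± 0.09 with ESR1, 0.83 ± 0.09 with both, 0.91 ± 0.09 with shLATS1B and 0.60 ± 0.09 with shLATS1+2. The first of these was not called without control array 1 or YAP/TAZ array 1 (-0.31 to -0.28, limma adjusted p 0.088 to 0.10).

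FADS1 and FADS2, the desaturases of long-chain polyunsaturated fatty acids, are neighbouring genes on opposite strands. FADS2 was at 9.58, 9.45 and 9.34 in the control arrays, 9.45, 9.47 and 9.58 with YAP/TAZ, and 9.71, 9.31 and 9.30 with ESR1. It was at 10.59, 10.81 and 10.84 with the combined cDNA, 10.68, 10.71 and 10.79 with shLATS1B, and 10.62, 10.51 and 10.38 in the arrays labelled shLATS1+2. The first 3 groups overlapped, and the last 3 rose by 1.29, 1.27 and 1.05 (SE 0.10 each, limma adjusted p up to 7.8e-07). FADS1 was at 10.02, 10.01 and 9.99 in the control arrays, 9.82, 9.86 and 9.81 with YAP/TAZ, and 10.02, 9.80 and 9.78 with ESR1. It was at 10.47, 10.56 and 10.64 with the combined cDNA, 10.58, 10.57 and 10.51 with shLATS1B, and 10.49, 10.41 and 10.47 in the arrays labelled shLATS1+2. It rose by 0.55, 0.55 and 0.45 in these 3 groups (SE 0.058 each), and all their arrays lay above every other array.

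FASN, the fatty acid synthase, spread more within groups. It was at 9.68, 9.13 and 9.40 in the control arrays, 9.34, 9.53 and 9.53 with YAP/TAZ, and 9.88, 9.35 and 9.19 with ESR1. It was at 10.14, 10.57 and 10.49 with the combined cDNA, 10.34, 10.45 and 10.49 with shLATS1B, and 10.03, 10.05 and 9.74 in the arrays labelled shLATS1+2. ESR1 array 1 lay above shLATS1+2 array 3, so those groups overlapped. The rise against control was 1.00 ± 0.16 with the combined cDNA and 1.03 ± 0.16 with shLATS1B (limma adjusted p = 0.00015 for each). With shLATS1+2 it was 0.54 ± 0.16 (limma adjusted p = 0.022), which was lost without control array 2 or 3 or shLATS1+2 array 1 or 2 (0.40 to 0.54, limma adjusted p 0.055 to 0.12). ACLY and ACACA, which supply acetyl-CoA and malonyl-CoA to FASN, gave no call higher than control in any group. ACLY was at 10.89 ± 0.093 (SD, n = 3) in the control arrays, 11.23 ± 0.14 with the combined cDNA (0.34, limma adjusted p = 0.055) and 10.53 ± 0.20 in the arrays labelled shLATS1+2. ELOVL6, the elongase that follows FASN, held group means between 10.03 and 10.35.

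The 3 genes of export and receptor turnover lay at low intensities. ABCA1, the pump that loads cholesterol on apolipoprotein, was at 4.60, 4.60 and 4.58 in the control arrays, 4.58, 4.60 and 4.57 with YAP/TAZ, and 4.56, 4.64 and 4.59 with ESR1. It was at 4.60, 4.63 and 4.64 with the combined cDNA, 4.57, 4.57 and 4.57 with shLATS1B, and 4.55, 4.53 and 4.59 in the arrays labelled shLATS1+2. All of these lie below the dim limit, and no comparison gave a call. ABCG1, a second export pump, was at 4.71, 4.85 and 4.75 in the control arrays, 4.67, 4.76 and 4.84 with YAP/TAZ, and 4.62, 4.70 and 4.68 with ESR1. It was at 4.93, 4.86 and 4.91 with the combined cDNA, 4.95, 4.98 and 5.18 with shLATS1B, and 4.83, 4.83 and 4.95 in the arrays labelled shLATS1+2. It was called with shLATS1B (0.27, limma adjusted p = 0.0038), although its means stayed below the dim limit in all 6 groups.

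MYLIP, the ligase that marks lipoprotein receptors for breakdown, was at 5.14, 5.18 and 5.15 in the control arrays, 5.17, 5.15 and 5.13 with YAP/TAZ, and 5.15, 5.02 and 4.98 with ESR1. It was at 5.17, 5.27 and 5.12 with the combined cDNA, 5.34, 5.41 and 5.32 with shLATS1B, and 5.24, 5.34 and 5.15 in the arrays labelled shLATS1+2. Only the shLATS1B arrays cleared the control range, by a change of 0.20 (limma adjusted p = 0.015) that became 0.17 (limma adjusted p = 0.077) without shLATS1B array 2. Its means passed the dim limit in the 2 hairpin groups alone.

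**Figure D2:**
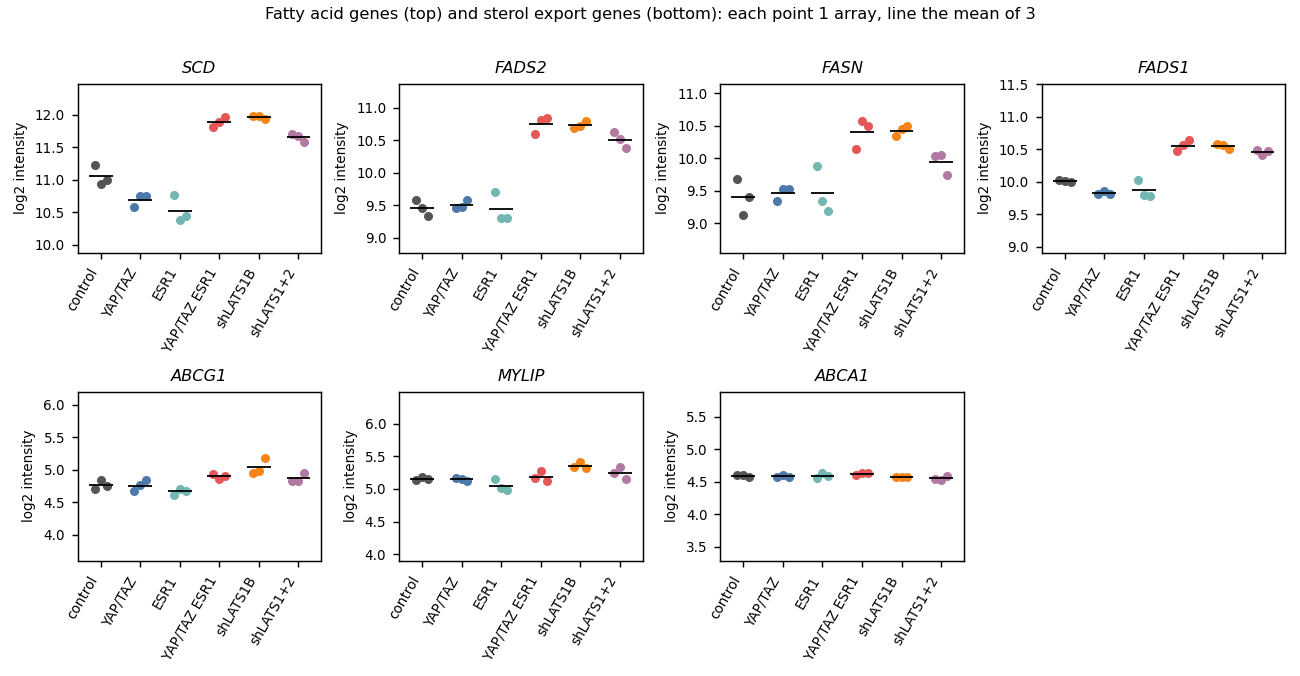
Log2 intensity (y axis) of 4 fatty acid enzymes (top) and the 3 export genes (bottom) in the 6 groups (x axis); each point is 1 array, the line is the mean of 3, and every panel spans the same height. SCD, FADS2 and FADS1 lie higher in the 3 groups on the right, FASN does so less clearly in the arrays labelled shLATS1+2 (9.74 to 10.05), and ABCA1 is flat between 4.53 and 4.64.

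With the hairpin against LATS1, most genes of both pathways were higher. Between the shLATS1B and control arrays, 23 of the 32 genes were higher and 0 lower by limma. Of all genes, 12.4% were called higher and 11.6% lower. At an unadjusted p under 0.05 too, 0 of the 32 were lower, against 2979 of all 18404 genes. The median change was 0.34 over the 32 genes and -0.00592 over all genes. The 23 comprised 13 of 16 sterol enzymes, 4 of 6 regulators, 4 of 7 fatty acid enzymes and 2 of 3 export genes. Beyond those given by array, they included DHCR7 (0.64), LSS, the lanosterol synthase (0.49), MVD, the decarboxylase of the mevalonate branch (0.39), and IDI1 (0.38). Also among them were MSMO1, a sterol demethylating oxidase acting after lanosterol (0.32), CYP51A1 (0.30), FDPS, farnesyl diphosphate synthase (0.29), SQLE (0.28) and EBP, a sterol isomerase (0.18). Not called were PMVK (-0.21), NSDHL (-0.06), SC5D (-0.19), SCAP (-0.08), INSIG2 (0.06), ACLY (0.03), ACACA (0.16), ELOVL6 (0.04) and ABCA1 (-0.03). The call for EBP ended without shLATS1B array 1 (0.15, limma adjusted p = 0.062). CYP51A1 rests on the brighter of its probe sets.

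In the arrays labelled shLATS1+2, 18 genes were higher and 2 lower than in the control arrays, against 11.8% and 13% of all genes, with a median change of 0.26 (-0.00796 over all genes). The 18 were 10 sterol enzymes, 4 regulators and 4 fatty acid enzymes, and no export gene. The 2 lower were PMVK (-0.37, limma adjusted p = 0.017) and ACLY (-0.36, limma adjusted p = 0.045). The fall of ACLY was lost when any 1 of 14 arrays was left out (-0.41 to -0.25, limma adjusted p 0.050 to 0.22). That of PMVK was lost without control array 1 or 2 or shLATS1+2 array 2 (-0.35 to -0.25, limma adjusted p 0.055 to 0.098).

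Set directly against shLATS1B, the arrays labelled shLATS1+2 gave 0 calls among the 32 genes by limma, where 0.141% of all genes were higher and 0.179% lower. At an unadjusted p under 0.05, 1 gene was higher and 10 were lower, against 928 and 1208 of all 18404 genes. With array weights 4 of the 32 were called lower, without a count over all genes to set beside them. The median difference was -0.11, against -0.00933 over all genes. INSIG1 differed by -0.20 (95% interval -0.30 to -0.10, limma adjusted p = 0.13), FASN by -0.49 (-0.83 to -0.14, limma adjusted p = 0.30), ACLY by -0.40 (-0.66 to -0.13) and SCD by -0.31 (-0.50 to -0.12), each without overlap of the arrays. HMGCS1 (-0.07, interval -0.21 to 0.07) and TM7SF2 (-0.15, -0.32 to 0.02) overlapped. A missed threshold does not show that the hairpin groups are alike.

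With all arrays included, the genes called with either cDNA alone were all lower, 9 for each, although for ESR1 this turned on a single array, as given below. In the arrays labelled YAP/TAZ, 0 of the 32 genes were higher than control and 9 lower by limma, against 3.16% and 3.84% of all genes. At an unadjusted p under 0.05 as well, 0 of the 32 were higher, against 1399 of all 18404 genes. The median change was -0.11 (-0.000887 over all genes). The 9 were the sterol enzymes ACAT2, HMGCS1, MVD (-0.38), FDPS (-0.27), EBP (-0.27) and NSDHL (-0.16), the regulator INSIG1, and the fatty acid enzymes SCD and ELOVL6 (-0.23). Without control array 2 the count was 5, with no count over all genes to set beside it. Besides ACAT2 and SCD, given above, NSDHL was lost without any 1 of 13 arrays (-0.17 to -0.13, limma adjusted p 0.051 to 0.19). ELOVL6 was lost without control array 2 or 3 or YAP/TAZ array 1 or 3 (-0.23 to -0.22, limma adjusted p 0.060 to 0.080). MVD was lost without control array 1 or 2 or YAP/TAZ array 2 (-0.34 to -0.29, limma adjusted p 0.078 to 0.095).

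With ESR1 cDNA alone, 0 genes were higher and 9 lower by limma, against 7.04% and 11.9% of all genes. At an unadjusted p under 0.05, 0 of the 32 were higher, against 2408 of all 18404 genes. The median change was -0.135 (0.00207 over all genes). The sterol enzymes among the 9 were HMGCS1, MVK, MVD (-0.41), FDPS (-0.33), NSDHL (-0.31) and EBP (-0.32), and the others were INSIG1, SCD and ACACA (-0.45). This comparison turned on ESR1 array 1, which lay farther from its group over the 32 genes (median absolute deviation 0.139) than any of the other arrays (up to 0.102). Without it, 16 genes were lower and 3 higher, against 17.8% and 11.9% of all genes. LSS then reached -0.39, ACLY -0.48, PMVK -0.35, DHCR7 -0.24, FADS1 -0.21, CYP51A1 -0.19 and SQLE -0.14 (limma adjusted p 0.0018 to 0.034). The 3 higher were SC5D (0.37), STARD4 (0.40) and MSMO1 (0.17). FASN went from 0.07 to -0.13, not called either way. The call for ACACA ended without control array 1 or ESR1 array 3 (-0.35 to -0.34, limma adjusted p 0.059 to 0.067).

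**Figure D3:**
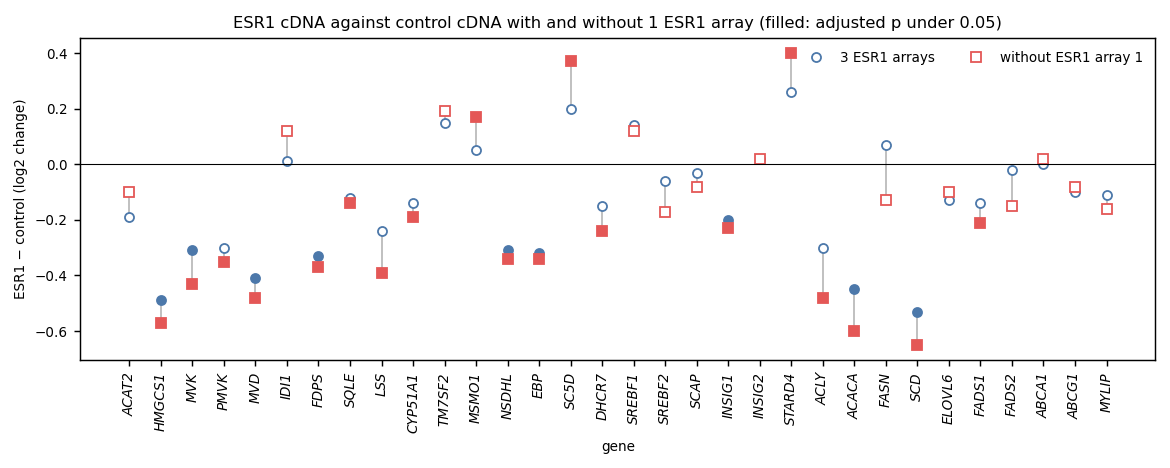
Log2 change with ESR1 cDNA against control (y axis) for each of the 32 genes (x axis), from 3 ESR1 arrays (circles) and without ESR1 array 1 (squares); filled symbols have a limma adjusted p under 0.05. Calls go from 9 to 19, and SC5D, STARD4 and MSMO1 are filled above 0 only without that array.

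With YAP/TAZ and ESR1 cDNA together, most of these genes were higher. Against control, 18 genes were higher and 1 lower, against 14.7% of all genes higher and 14.7% lower, with a median change of 0.34 (-0.00433 over all genes). The 18 were 10 sterol enzymes, 4 regulators and 4 fatty acid enzymes. Beyond those given by array they included DHCR7 (0.73), LSS (0.54), MSMO1 (0.37), CYP51A1 (0.36), IDI1 (0.35), SQLE (0.33) and FDPS (0.18). FDPS was lost without control array 1 or combined cDNA array 3 (0.14 to 0.16, limma adjusted p 0.059 to 0.070). The gene called lower was PMVK (-0.30, limma adjusted p = 0.044), which was lost without any 1 of 14 arrays (-0.30 to -0.18, limma adjusted p 0.051 to 0.22).

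Set against YAP/TAZ alone, the combined cDNA arrays had 23 genes higher and 0 lower by limma (12.3% and 10.5% of all genes). At an unadjusted p under 0.05, 0 of the 32 were lower, against 2800 of all 18404 genes. The median change was 0.45 (-0.00443 over all genes). INSIG1 was higher by 1.84, TM7SF2 by 1.77, HMGCS1 by 1.48, FADS2 by 1.25 and SCD by 1.20. The calls with the highest limma adjusted p were ACLY (0.44, adjusted p = 0.018), EBP (0.17, adjusted p = 0.015) and ELOVL6 (0.22, adjusted p = 0.010), each lost without 1 or more arrays. EBP needed YAP/TAZ array 2 and combined cDNA arrays 2 and 3 (without one, 0.13 to 0.16, limma adjusted p 0.056 to 0.088). ACLY needed YAP/TAZ array 1 and combined cDNA arrays 2 and 3 (0.38 to 0.42, limma adjusted p 0.064 to 0.082), and ELOVL6 combined cDNA array 1 (0.15, limma adjusted p = 0.056).

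Set against ESR1 alone, 24 genes were higher and 0 lower by limma (16.2% and 12.9% of all genes). At an unadjusted p under 0.05, 0 of the 32 were lower, against 3096 of all 18404 genes. The median change was 0.505 (-0.00428 over all genes). TM7SF2 was higher by 1.64, INSIG1 by 1.61, HMGCS1 by 1.51, SCD by 1.36, FADS2 by 1.31 and MVK by 1.13. The 24 comprised 13 of 16 sterol enzymes, 4 of 6 regulators, 6 of 7 fatty acid enzymes and, of the export genes, ABCG1 (0.23). IDI1 (0.34) was lost without combined cDNA array 1 (0.26, limma adjusted p = 0.050).

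This comparison and that of shLATS1B with control share no array. Of the 23 genes higher with shLATS1B and the 24 higher with the combined cDNA over ESR1, 21 were shared, which is 91.3% of the first list and 87.5% of the second. Over all genes the shared calls were 65.9% and 50.6%, where 12.4% were called higher with shLATS1B and 16.2% with the combined cDNA over ESR1. With 23 and 24 of only 32 genes called, much of their overlap is fixed by these counts. The shared percentages of the 32 genes therefore cannot be set against those of all genes. Whether the overlap exceeds what the counts alone would give was not tested. ACAT2 and MYLIP were called only with shLATS1B, and NSDHL, ACLY and ACACA only with the combined cDNA. For shLATS1+2 the shared genes numbered 17, or 94.4% of its 18 and 70.8% of the 24. Over all genes these shares were 56.5% and 41.3%, and the same limit applies to setting them side by side.

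**Figure D4:**
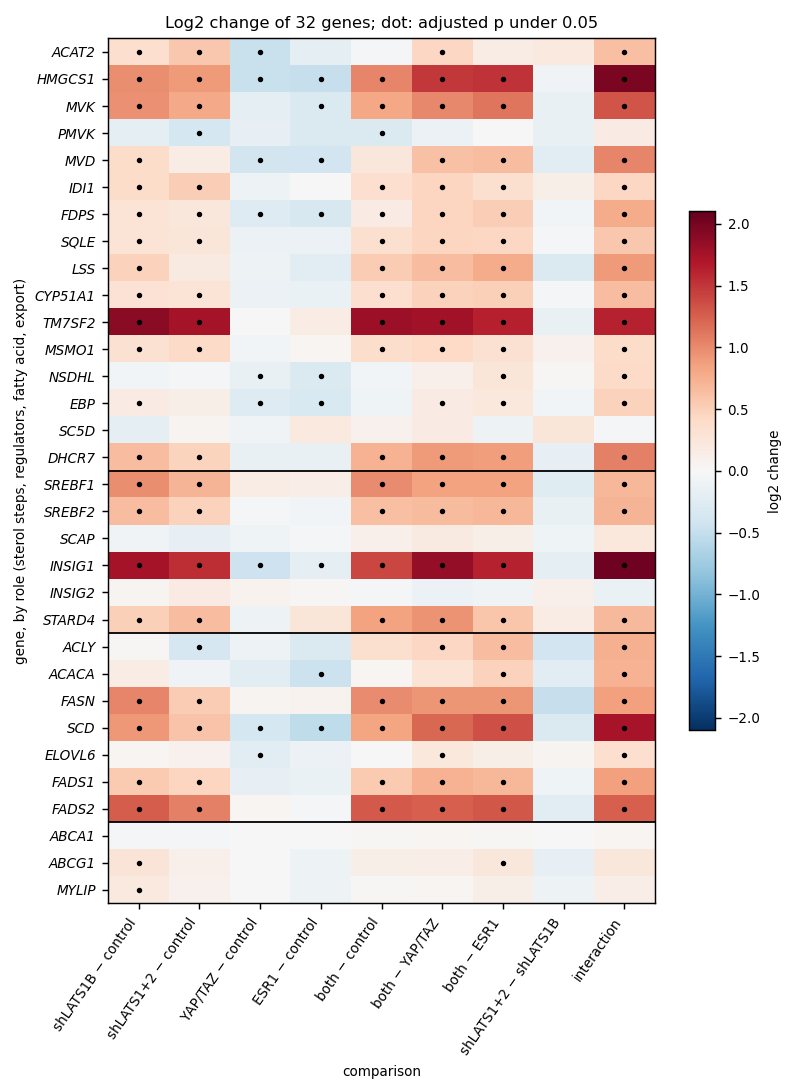
Log2 change (colour, red higher and blue lower) of each of the 32 genes (rows, by role) in the 9 comparisons (columns; "both" is the combined cDNA, and the interaction is the YAP/TAZ difference with ESR1 cDNA minus that without); dots mark limma adjusted p under 0.05. INSIG1 and TM7SF2 are the deepest red with shLATS1B (1.75 and 1.89), the columns for YAP/TAZ and ESR1 alone hold 9 dots each, all lower, and the rows of INSIG2, SCAP, SC5D and ABCA1 have none.

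Whether YAP/TAZ cDNA acted differently when ESR1 cDNA was present was tested directly, as the difference between its effect with ESR1 and its effect without. For 25 of the 32 genes this interaction was above 0 by limma and for 0 below, against 11.4% and 7.68% of all genes. At an unadjusted p under 0.05, 0 of the 32 were below, against 2502 of all 18404 genes. The median was 0.69 log2 units, against 0.000217 over all genes. INSIG1 fell by -0.43 without ESR1 and rose by 1.61 with it (interaction 2.05 ± 0.066, limma adjusted p = 4.6e-12). HMGCS1 went from -0.46 to 1.51 (1.97 ± 0.094) and SCD from -0.37 to 1.36 (1.73 ± 0.13). TM7SF2 (0.02 and 1.64) and FADS2 (0.04 and 1.31) were not called without ESR1 and rose with it. The 25 comprised 14 of 16 sterol enzymes, 4 of 6 regulators and all 7 fatty acid enzymes. Not called were PMVK (0.17), SC5D (-0.03, interval -0.38 to 0.33), SCAP (0.22), INSIG2 (-0.14) and the 3 export genes (0.04 for ABCA1, 0.24 for ABCG1 and 0.14 for MYLIP). Among the 25, IDI1 (0.44) was lost without control array 2 or 3, YAP/TAZ array 2 or combined cDNA array 1 (0.36 to 0.42, limma adjusted p 0.055 to 0.058). STARD4 (0.68) was lost without control array 2 or 3 or YAP/TAZ array 2 (0.61 to 0.64, limma adjusted p 0.053 to 0.055), and MSMO1 (0.38) without the last of these (0.35, limma adjusted p = 0.057).

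**Figure D5:**
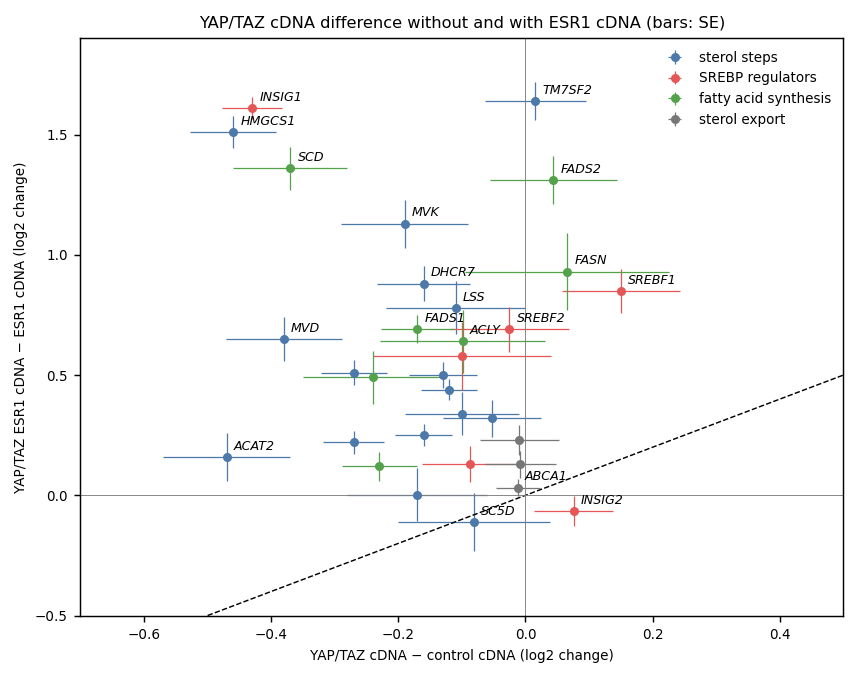
Log2 change with YAP/TAZ cDNA without ESR1 cDNA (x axis) and with it (y axis) for the 32 genes, coloured by role, with bars of 1 SE and a dashed line where both are equal. Above the line lie 30 of the 32 genes, INSIG1 (-0.43 and 1.61), HMGCS1 and SCD farthest to the upper left, while SC5D, INSIG2 and ABCA1 lie close to it.

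Other genes of the pathways were listed by function, and their interaction counts stand beside the 11.4% of all genes above 0 and 7.68% below. At an unadjusted p under 0.05, the interaction was above 0 for 3212 and below 0 for 2502 of all 18404 genes. Of 17 measured genes of sterol handling and SREBP processing, 5 had an interaction above 0 and 0 below by limma (9 and 0 at an unadjusted p under 0.05), with a median of 0.14. Those with the largest values were NPC1, which exports cholesterol from lysosomes (0.46), CH25H, which makes an oxysterol (0.33), and MBTPS1, the protease that first cuts SREBP (0.30, limma adjusted p = 0.040). Against control, 5 of the 17 were higher and 2 lower with shLATS1B, where 12.4% and 11.6% of all genes were. With the combined cDNA over ESR1, 7 were higher and 0 lower, against 16.2% and 12.9% of all genes. NPC1 (0.45), MBTPS1 (0.34) and CH25H (0.34) had the largest changes there. Of 23 other lipid synthesis genes, 9 had an interaction above 0 and 5 below, with a median of 0.01. ACSS2, which makes acetyl-CoA from acetate, had the largest (2.07 ± 0.20, limma adjusted p = 1.3e-06). Its mean was 8.46 in the control arrays, 8.19 with YAP/TAZ, 7.98 with ESR1, 9.77 with the combined cDNA, 9.81 with shLATS1B and 9.54 in the arrays labelled shLATS1+2. ACSL5 (-1.15) and ACSL1 (-0.89), which activate long-chain fatty acids, had interactions below 0. ACSL5 was nevertheless higher than its control mean of 5.95 in every other group, at 7.19 with YAP/TAZ, 7.43 with ESR1, 7.51 with the combined cDNA, 7.94 with shLATS1B and 7.75 in the arrays labelled shLATS1+2. Each cDNA alone had raised it, by 1.24 and 1.48, and both together by 1.56. With the combined cDNA over ESR1, 9 of the 23 were higher and 5 lower, against 16.2% and 12.9% of all genes. ACSS2 (1.79) and ACSL4 (0.78) were higher there and GPAM (-0.55) was lower. GPAM averaged 7.48 in the control arrays and less in every other group. Its means were 7.02 with YAP/TAZ, 6.81 with ESR1, 6.26 with the combined cDNA, 6.57 with shLATS1B and 6.55 in the arrays labelled shLATS1+2. Among 8 measured genes of LXR, its partner and its targets outside the set, 2 had an interaction above 0, RXRA (0.50) and LPCAT3 (0.44), and 0 below by limma (2 and 0 at an unadjusted p under 0.05). With the combined cDNA over ESR1, 3 of the 8 were higher, RXRA (0.61), LPCAT3 (0.24) and NR1H3 (0.22), and 0 lower.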

How the data were processed

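Total RNA from 18 MCF10A samples was hybridised to Affymetrix whole-transcript arrays, 100 ng per array per the labels' protocols. The authors deposited log2 intensities for 32321 probe sets. The software affy is named, without a version, in the submitters' processing notes, and how background, normalization and summary were done is not given in the sources used here. In the platform annotation, 19158 probe sets had 1 gene symbol, 1388 several and 11775 none. Symbols were updated through RefSeq (GRCh38.p14; 19128 matched). The probe set with the highest mean represented each of 637 genes with several, which left 18404 genes.

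With limma 3.58.1 in R 4.3.3, 1 mean per group was fitted to all 18 arrays (lmFit, eBayes), and 9 contrasts were tested two-sided with Benjamini-Hochberg adjustment over all genes at 0.05. The script was tested on simulated data. Residual degrees of freedom were 12, with 3.94 added by eBayes. The number of arrays limits the precision.

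The genes and lists were chosen with earlier results of these data known. Up to 4 genes per role with the widest range of group means, and all 3 export genes, are given by array, and of each other list up to 3 called genes with the largest changes in the comparisons with most calls. Replicate numbers did not pair the arrays: deviations of same-numbered arrays correlated with r from -0.694 to 0.631 (median -0.0832), and 13 of 45 such pairs exceeded 0.1. Alternatives were a replicate block, median centring, quantile normalization, leaving out dim genes, all probe sets, trended robust eBayes, array weights, only the groups compared, and each array left out in turn. Leaving out ESR1 array 1 and shLATS1+2 array 3 together was added after the data were seen.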

Additional observations from a re-analysis of the deposited data

Results flagged for a closer look

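The effect of YAP/TAZ cDNA differed with and without ESR1 cDNA for 25 genes, by the interaction test of limma (3 arrays a group, log2 units, all adjusted p under 0.05). Among the sterol enzymes the differences were 1.97 for HMGCS1, 1.62 for TM7SF2, 1.32 for MVK, 1.05 for DHCR7, 1.03 for MVD, 0.89 for LSS, 0.78 for FDPS, 0.64 for CYP51A1, 0.63 for ACAT2, 0.56 for SQLE, 0.49 for EBP, 0.44 for IDI1, 0.41 for NSDHL and 0.38 for MSMO1. Among the regulators they were 2.05 for INSIG1, 0.72 for SREBF2, 0.70 for SREBF1 and 0.68 for STARD4. Among the fatty acid enzymes they were 1.73 for SCD, 1.26 for FADS2, 0.86 for FADS1, 0.86 for FASN, 0.74 for ACLY, 0.73 for ACACA and 0.35 for ELOVL6. YAP1 and WWTR1 were not higher in the arrays labelled YAP/TAZ, and WWTR1 was at 9.99 ± 0.08 (SD, n = 3) in the combined cDNA arrays against 9.57 ± 0.16 in the control arrays. WWTR1 was also at 10.01 ± 0.033 with shLATS1B and 9.80 ± 0.08 in the arrays labelled shLATS1+2, which received no YAP/TAZ cDNA. Whether the YAP1 and WWTR1 probe sets read the transfected cDNA is not known, and the part of WWTR1 in the interaction was not tested. Of the 4 groups this test uses, the combined cDNA arrays alone lay on the upper side of the first principal component of all genes (17.8 to 22.7).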

How the results depend on the processing

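Of 152 called changes of single genes, refitted under 27 alternatives (18 of which left out 1 array), 4101 values were obtained: 3975 kept direction and call, 126 lost the call and 0 changed direction. Leaving out an array of a group not compared cannot alter a gene's change, nor can all probe sets, trended robust eBayes or only the groups compared. For many of these values the direction was therefore fixed in advance. Most often lost were NSDHL with YAP/TAZ (18 alternatives), PMVK with the combined cDNA (18), ACLY with shLATS1+2 (16) and MVK with ESR1 (14). The count of genes called stayed within 1.5 times the main count except in 3 comparisons, and the causes were not tested. For ESR1 against control (9) it was 14 with arrays centred on their medians, 15 with array weights, 5 with only the groups compared and 20 with ESR1 array 1 and shLATS1+2 array 3 both left out, an alternative chosen after seeing the data; leaving out 1 array gave 7 to 19. For YAP/TAZ against control (9), leaving out 1 array gave 5 to 10. For shLATS1+2 against shLATS1B (0) array weights gave 4, and leaving out any 1 array gave 0. With a replicate block the interaction had 26 calls (25 without), shLATS1+2 against control 21 (20) and the combined cDNA against control 18 (19). Except without ESR1 array 1, no count over all genes under the same alternative stands beside these counts. Whether they moved more than those of all genes was therefore not tested. With arrays centred, the median change of all genes moved to between -0.0731 and 0.00957, and for ESR1 against control from 0.00207 to -0.0499. Signal limits ABCA1 and ABCG1, whose means lie below the dim limit of 5.208 in all 6 groups, and MYLIP, below it in 4.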

Other observations

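Within groups, some of these genes deviated from their group mean together, across all 18 arrays. The genes FASN, ACLY, ACACA and LSS, chosen after their values were seen, had pairwise correlations of deviations of 0.86 to 0.97 (median 0.90). STARD4, IDI1, MSMO1 and SC5D, chosen likewise, had 0.73 to 0.96 (median 0.91), and between the sets the correlations were -0.96 to -0.77 (median -0.90). The points share arrays and the 3 deviations of a group sum to 0, so this is a description and no test was made. FASN, for instance, was at 9.88 in ESR1 array 1 against 9.35 and 9.19 in the others of its group, where SC5D was at 10.10 against 10.56 and 10.62.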
